A study of Drosophila melanogaster with 36 samples.

Results

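Regions called in 12 stable Kc167 lines were followed at gcm, gcm2, repo, pnt, ttk and loco, the genes of the Gcm pair and of 4 regulators and effectors of glia. The members were all regions that lay in the body of 1 of the 6 genes or within 10 kb of it, in the dm6 genome build. They numbered 548 of 112270 regions at a false discovery threshold of q 1e-2, and 360 of 64006 at q 1e-10. Merged where they overlapped by 1 bp, the 548 regions formed 76 sites, 42 touching a gene body and 34 in the flanks. A region here is the union of overlapping stretches enriched over input in both replicates of a line, so its ends can rest on 1 replicate alone.

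Kc167 is an embryonic Drosophila cell line with traits of fly blood cells, or hemocytes. The lines carried plasmids with the copper-inducible pMT promoter, so that expression was not under the control of the endogenous genes, and each was a single stable line. Anti-GFP ChIP-Seq was carried out on FACS-sorted cells, with 2 replicates and 1 input library per line, or 24 ChIP and 12 input libraries. The question was which sites Hox proteins occupy, alone and with the cofactors Hth (which acts with Exd) or Gcm. The tag was on the Hox protein, with untagged Hth or Gcm made from the same plasmid through 2A peptides, and in lines that made no Hox protein it was on Hth or Gcm.

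The plasmids were pMT-puro-eGFP-Dfd, pMT-puro-eGFP-Ubx and pMT-puro-eGFP-AbdB for the lines Dfd, Ubx and Abd-B. Dfd+Hth, Ubx+Hth and Abd-B+Hth carried Hth-2A ahead of the tagged Hox protein, Dfd+Gcm and Ubx+Gcm carried gcm-2A, and Dfd+Hth+Gcm and Ubx+Hth+Gcm carried both. Hth came from pMT-puro-Hth-eGFP and Gcm from pMT-puro-eGFP-gcm. Copper sulphate was given at 1 mM for 18 h to Ubx, Ubx+Hth and Hth, and at 2.5 mM for 24 h to Ubx+Gcm, Ubx+Hth+Gcm, Gcm and Abd-B+Hth. Dfd had 2 mM for 24 h, Dfd+Hth 2.66 mM for 22 h, Dfd+Gcm 3.2 mM for 24 h, Dfd+Hth+Gcm 3.7 mM for 22 h and Abd-B 0.5 mM for 24 h. Cofactor, copper, time and line therefore change together in most comparisons and cannot be told apart. In the 5 lines with a gcm plasmid, the authors removed regions over gcm exons, where the plasmid itself gives signal.

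Gcm is a zinc-containing transcription factor that switches embryonic neural precursors to the glial fate, and it also acts in hemocytes together with its paralog Gcm2. In glia it activates repo, which encodes a homeodomain protein kept on in lateral glia, and acts upstream of pnt, ttk and loco. Pnt is an ETS transcription factor of EGFR signalling, Ttk a BTB zinc finger repressor that keeps neuronal genes off in glia, and Loco an RGS protein that acts on G protein signalling.

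The lists ranged from 4885 regions in Ubx+Hth to 13741 in Abd-B+Hth, and the 6 genes held between 32 regions in Ubx and 57 in Abd-B. By line they held 48 in Dfd, 49 in Dfd+Hth, 34 in Ubx+Hth, 52 in Abd-B+Hth, 47 in Dfd+Gcm, 49 in Ubx+Gcm, 39 in Dfd+Hth+Gcm, 41 in Ubx+Hth+Gcm, 48 in Hth and 52 in Gcm. The lists merge both replicates and give no score, so none of these counts has a replicate error. Each share of regions is given with its 95% exact binomial interval, which covers counting error alone and treats neighbouring regions as separate.

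Sequences of the Gcm site are shown first, because they mark where Gcm can be read from the DNA at these genes. The octamers searched were ATACGGGC, ATACGGGT, ATGCGGGC and ATGCGGGT, on both strands. The Gcm regions called at q 1e-10 at the 6 genes held 15 of them, and 11 are printed below with 11 bases on either side, each written 5′ to 3′ on its own strand with the octamer in capitals.
gcm, Gcm line alone, chr2L:9589480-9589487, plus strand: atactcgtaacATGCGGGTgcgcaccacca
gcm, Gcm line alone, on the far side, chr2L:9574499-9574506, plus strand: tggtggagaggATGCGGGTggtatagaagc
gcm2, 9 lines (all but Dfd, Ubx and Ubx+Hth), chr2L:9608358-9608365, plus strand: tttggcaaattATGCGGGTggctcgtcgct
repo, 4 lines with a gcm plasmid, chr3R:18229048-18229055, minus strand: atcgtcgtgacATGCGGGCaagtttaaatt
repo, Gcm line alone, chr3R:18234116-18234123, minus strand: caggttccgaaATGCGGGCaaagtcgaagt
repo, Gcm line alone, nearer to the gene, chr3R:18234326-18234333, plus strand: tcattcgatcaATGCGGGCcggtctttgag
pnt, all 12 lines, chr3R:23310010-23310017, plus strand: aatttccgtagATGCGGGCcaagcagggac
pnt, Gcm and Ubx+Gcm, chr3R:23292443-23292450, minus strand: caacaattcgaATGCGGGCagcaataacaa
ttk, Gcm, Hth and 3 Hox lines with Gcm, chr3R:31719598-31719605, minus strand: agacattcgaaATGCGGGTcaccgccggac
loco, all 12 lines, chr3R:22627607-22627614, plus strand: aggcaactggaATGCGGGCggccgctgctt
loco, Gcm line alone, beyond its end, chr3R:22614783-22614790, minus strand: ggagcccagcaATACGGGCactaccttctg

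All but 1 of these 11 begin with ATGCGGG, and the exception, ATACGGGC, lies in a coding exon of mRRF2 beyond the end of loco. A longer stretch shows the pair of octamers in the Gcm region 2132 bp upstream of repo, which no other line shared. The octamer starts lie 210 bp apart on opposite strands, so that the first reads GCCCGCAT here. The 258 bp are intergenic.
repo upstream stretch, chr3R:18234096-18234353, plus strand: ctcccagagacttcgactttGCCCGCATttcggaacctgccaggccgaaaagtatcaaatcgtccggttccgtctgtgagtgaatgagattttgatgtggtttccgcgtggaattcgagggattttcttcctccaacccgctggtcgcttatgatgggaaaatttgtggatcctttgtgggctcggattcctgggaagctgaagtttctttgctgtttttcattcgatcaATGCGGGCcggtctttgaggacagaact

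The 6 windows held 22 octamers in 226687 bp, or 0.971 per 10 kb, against 0.517 per 10 kb in the whole genome. Of the 22, 19 lay in a Gcm region (86.4%, 95% exact interval 65.1 to 97.1), against 49.9% of the 6927 octamers of the genome, and 15 lay in one at q 1e-10. All 4 octamers in the repo window, all 5 in the loco window, all 3 in the gcm2 window and the 1 in the ttk window were covered. The remaining 3 were a copy in the exon of lncRNA:CR43621 near gcm and copies in coding exons of bb8 and PolE1 beside pnt. The windows were also more densely covered by Gcm regions than the genome, with 13.6% of their bases against 4.48%.

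Seen from the regions, the octamer share of the 6 genes had an interval that included the share of all Gcm regions. In the central 200 bp, 9 of 52 Gcm regions had a match (17.3%, interval 8.23 to 30.3), against 23.6% of all 10750 Gcm regions and 0.994% of all 200 bp windows of the genome. At q 1e-10 the order was the other way, with 10 of 29 (34.5%, interval 17.9 to 54.3) against 28.4% of all Gcm regions. That interval also includes the share of the list. Windows of the same length centred 1000 bp away had matches in 0 and 1 of the 52. Most Gcm regions at these genes, 36 of 52 over their whole width, thus held no copy of these octamers.

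**Figure D1:**
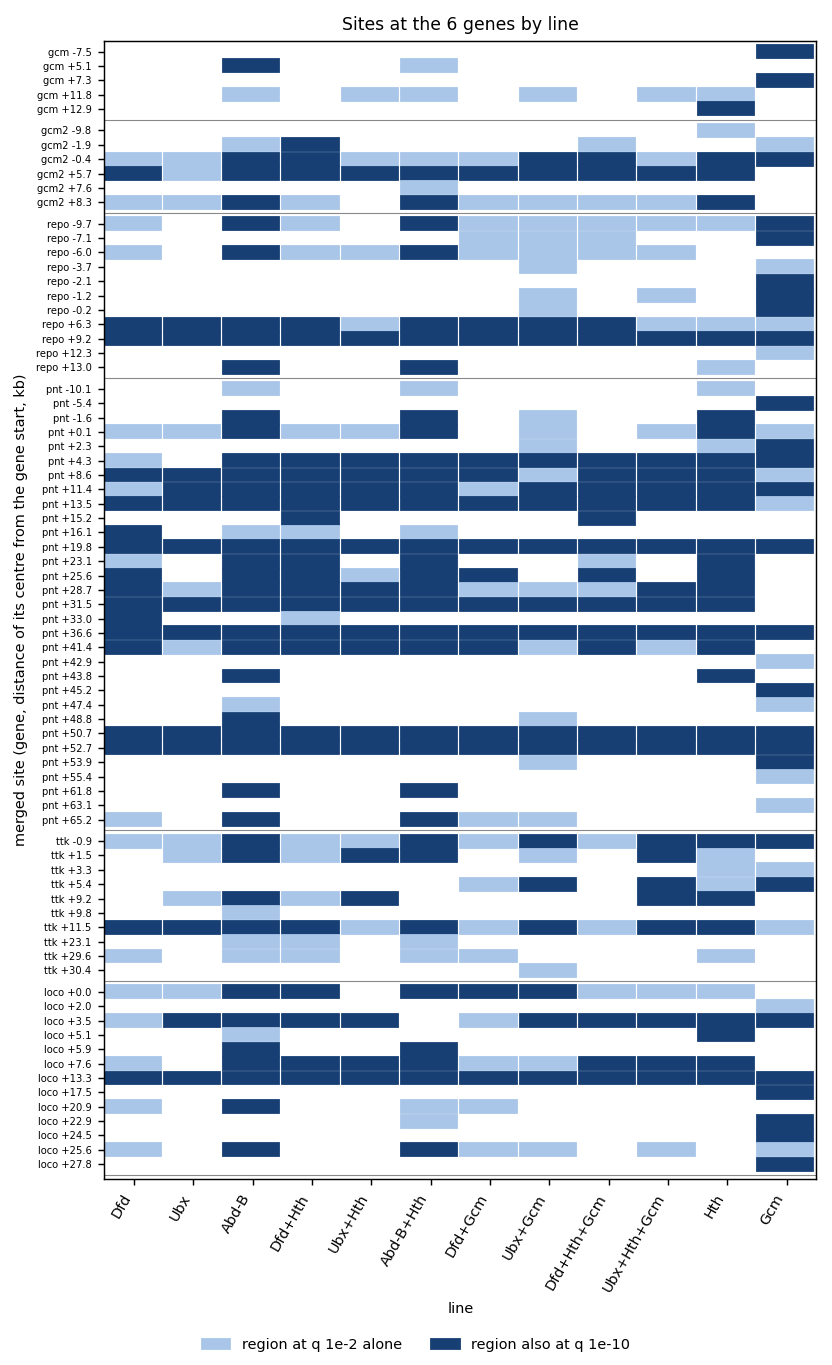
Each row is 1 of the 76 merged sites, labelled by gene and by the distance of its centre from the gene start in kb, and each column is 1 of the 12 lines. Pale cells are regions at q 1e-2 alone, dark cells regions also at q 1e-10. The 13 rows filled across are sites of all 12 lines, and the 13 rows with a cell in the last column alone are sites of the Gcm line.

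Of the 76 sites, 13 were occupied in all 12 lines and 18 in a single line. Sites with a Gcm region numbered 42, of which 27 reached q 1e-10, and 13 sites had no region but that of Gcm. Sites in 10 or more lines numbered 24, and 17 of them included Gcm. At 4 sites every line but Gcm had a region, 3 of them at pnt and 1 at gcm2. The Hth line was alone at 2 sites, and 5 sites were found in Abd-B lines only.

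By annotation, 37 of the 76 site centres lay in introns, 18 between genes, 8 in 5' UTRs, 7 in coding exons and 6 in 3' UTRs. Of the 13 sites of the Gcm line alone, 5 centres were in coding exons, 4 in introns, 2 in 3' UTRs and 2 between genes. The coding exons were those of loco, at 2 sites, and of the neighbours CG31156, PolE1 and Cdc16. The 6 windows hold 36 other annotated genes, so that a site within 10 kb of a member can lie in a neighbour.

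The number of genes reached was high in every line. At least 1 region lay at all 6 genes in Abd-B, Ubx+Hth, Abd-B+Hth, Ubx+Gcm, Ubx+Hth+Gcm, Hth and Gcm, and at 5 in the other lines, where gcm was the gene without one. Of 13945 protein-coding genes, 82.7% had a region of Dfd in the body or within 10 kb, 66.3% of Ubx, 87.8% of Abd-B and 82.0% of Dfd+Hth. The same share was 54.7% for Ubx+Hth, 88.8% for Abd-B+Hth, 80.5% for Dfd+Gcm and 81.8% for Ubx+Gcm. It was 77.9% for Dfd+Hth+Gcm, 77.0% for Ubx+Hth+Gcm, 79.3% for Hth and 85.6% for Gcm. Most protein-coding genes thus had a region at this distance in every line.

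Relative to the genome, the 6 windows together were dense in regions in each of the 12 lines. They held between 2.24 times (Abd-B+Hth) and 4.11 times (Ubx+Hth) as many regions per base as the genome, with a median over lines of 2.92. In the Gcm line the value was 2.86. The genes differed widely in this respect. The covered share of the pnt window was the highest of the 6 in Dfd, Ubx, Abd-B, every Hox line with Hth but without Gcm, Dfd+Gcm, Dfd+Hth+Gcm and Hth, and reached 9.18 times the genome-wide share in Ubx+Hth. In Gcm, repo was highest at 5.77 times, followed by loco at 4.44, pnt at 2.82, ttk at 2.54, gcm at 1.33 and gcm2 at 1.23. Repo also led in Ubx+Gcm, at 6.24 times against 5.28 for pnt, and in Ubx+Hth+Gcm, at 5.27 against 5.00.

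**Figure D2:**
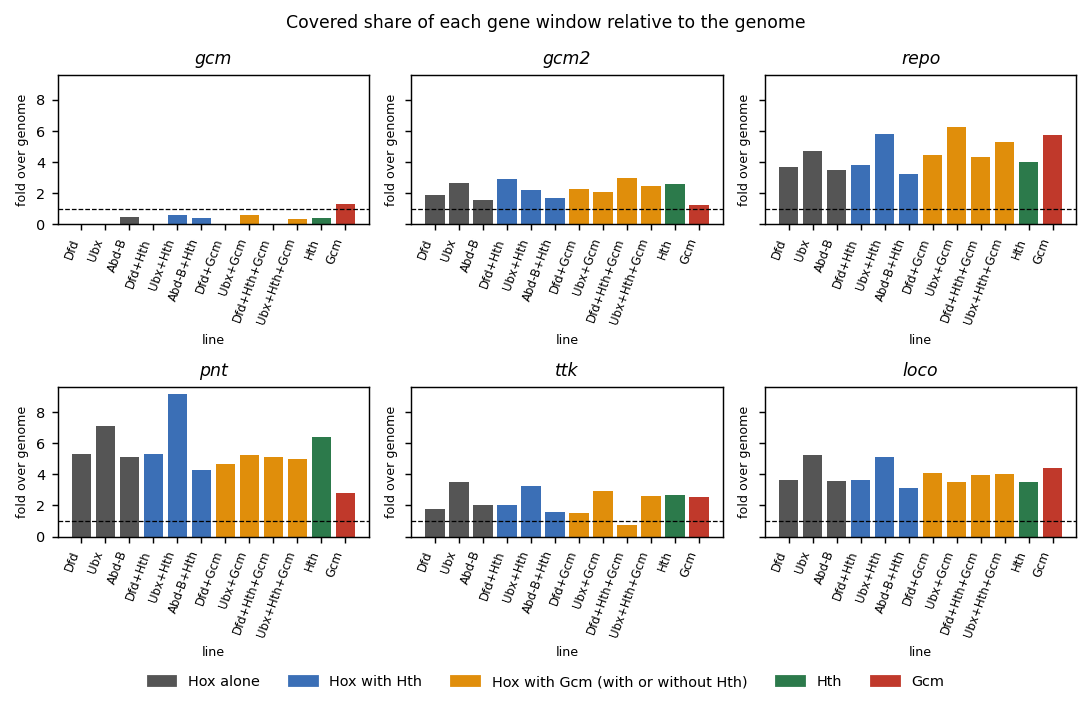
Bars give, for each gene and line, the share of the gene body and its 10 kb flanks covered by regions at q 1e-2, divided by the covered share of the genome in that line. The dashed line marks the genome at 1. The gcm panel stays under 1 except in the Gcm line (1.33), while pnt and repo lie at 2.82 or above in all 12 lines.

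At gcm itself, binding was sparse. The gene (FBgn0014179, chr2L:9579498-9581745, minus strand) had no region in its body in any of the 12 lines, including the 7 without a gcm plasmid. No region was called in the 11929 bp from chr2L:9576957 to 9588885, which holds the gene, its start and the flanking CG31709 and lncRNA:CR43621. In the 5 lines with the plasmid this cannot be read, since regions over gcm exons had been removed. In the other 7 the nearest region lay between 2542 bp (Abd-B) and 11728 bp (Dfd) from the gene.

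The Gcm line had both of its gcm regions at q 1e-10, and no other line shared either. One, at chr2L:9588886-9589598, was centred 7497 bp upstream of the gcm start, where CG3841 starts. The other, chr2L:9574125-9574736, was centred 7315 bp downstream of the gcm start, in an intron of Mtpalpha, and lay 4762 bp from the gene. Each held 1 Gcm octamer, printed above. The window therefore held Gcm regions on both sides of the gene, each over a flanking gene.

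The Hox lines and Hth had regions only on the downstream side of gcm. Abd-B and Hth had 2 regions each, Abd-B+Hth had 2, Ubx+Hth, Ubx+Gcm and Ubx+Hth+Gcm had 1 each, and Dfd, Ubx, Dfd+Hth, Dfd+Gcm and Dfd+Hth+Gcm had none. None of the 4 lines with Dfd thus had a region at gcm. The widest site, chr2L:9568210-9569507, was 1298 bp long and present in Hth alone, almost wholly beyond the 10 kb limit at chr2L:9569498.

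The paralog gcm2 (FBgn0019809, chr2L:9608562-9612706, plus strand) lies divergent to gcm, with 26816 bp between the 2 genes. It had a site just ahead of its start in all 12 lines, chr2L:9607643-9608658, which reached q 1e-10 in 6 of them, namely Abd-B, Dfd+Hth, Ubx+Gcm, Dfd+Hth+Gcm, Hth and Gcm. The Gcm region was the only one of the 12 that covered the transcript start itself, and it held the octamer printed above. Regions within 500 bp of the start were called in all 12 lines.

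Downstream of gcm2 the pattern was the opposite. The widest site, chr2L:9613192-9615348 in Trx2, was present in 11 lines and reached q 1e-10 in 10, but had no Gcm region. The Ubx+Hth region at its distal part, chr2L:9614296-9615218, had no counterpart in Ubx alone at q 1e-2 and was called at q 1e-10. Dfd, Abd-B and Hth also had regions over that part at q 1e-10. A further site, chr2L:9605679-9607642, lay 1902 bp upstream. Dfd+Hth reached q 1e-10 there, and regions of Abd-B, Dfd+Hth+Gcm and Gcm at q 1e-2 alone lay over different parts of it. Dfd alone had none. In all, gcm2 held 3 regions in Ubx, 2 in Ubx+Hth and Gcm and 4 in each of the other lines.

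**Figure D3:**
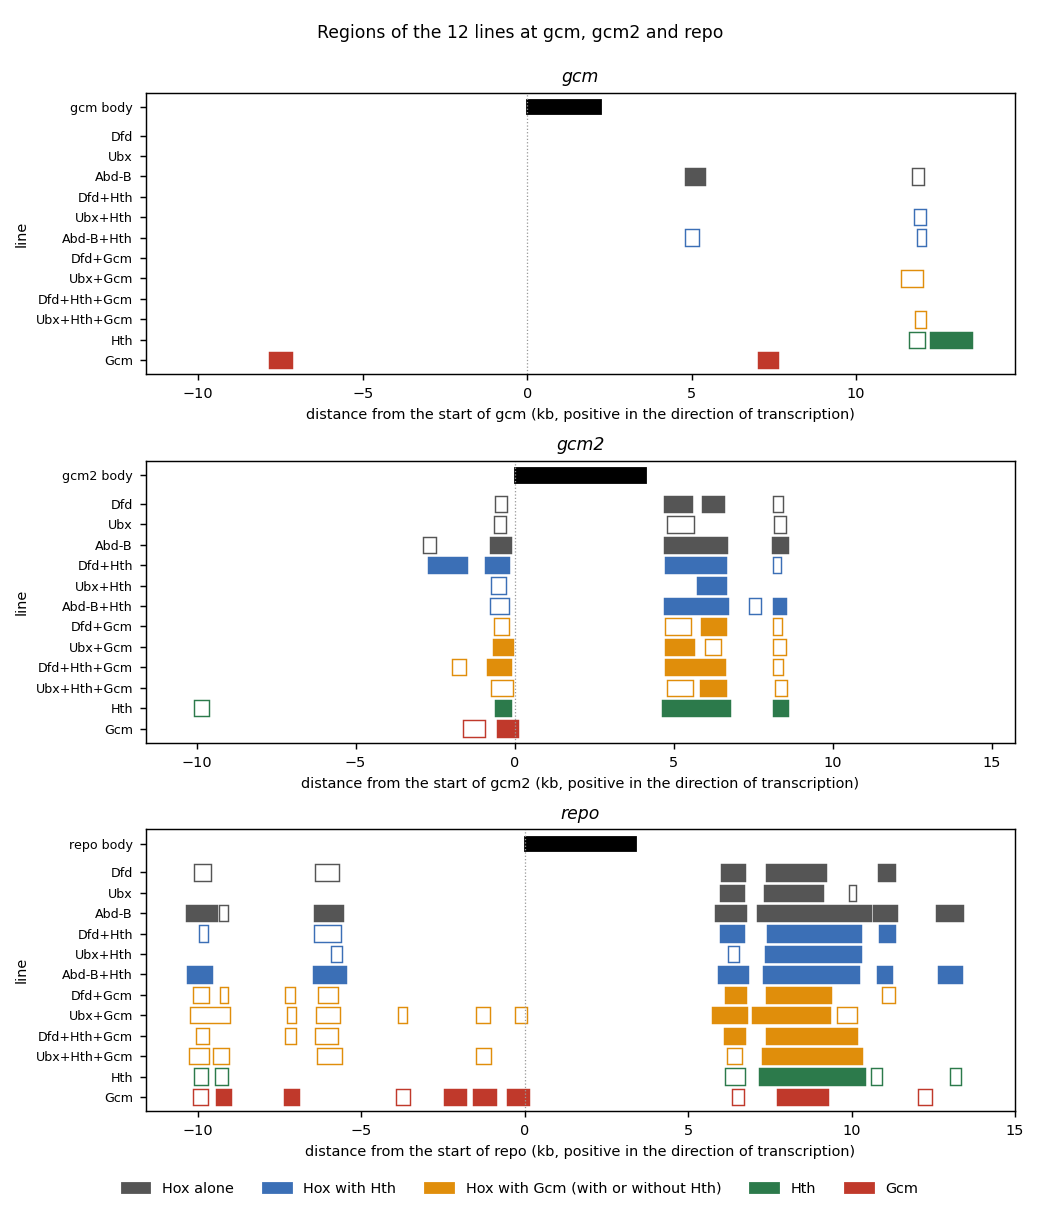
Regions of each line (rows) at gcm, gcm2 and repo by distance from the gene start in kb, positive in the direction of transcription, with the gene body as a black bar. Filled boxes were called also at q 1e-10, open boxes at q 1e-2 alone. The gcm body is empty in every line, and the 4 kb upstream of repo hold regions of Gcm, Ubx+Gcm and Ubx+Hth+Gcm alone.

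The window of repo, the gene of the glial homeodomain protein, had regions in every line, but only those of Ubx+Gcm and Gcm touched the gene body. The gene (FBgn0011701, chr3R:18236192-18239602, plus strand) and its flanks held 10 regions in Gcm, 9 in Ubx+Gcm and 7 in Dfd+Gcm and Abd-B. They held 6 in Abd-B+Hth, Ubx+Hth+Gcm and Hth, 5 in Dfd, Dfd+Hth and Dfd+Hth+Gcm, and 3 in Ubx and Ubx+Hth. Of the 11 sites at repo, 9 had a Gcm region, and 6 of these at q 1e-10. At 4 of the 9, the Hox lines had a region only where the plasmid also carried gcm (44.4%, interval 13.7 to 78.8), against 9.59% of the 9690 merged sites with a Gcm region in the whole genome. Over the 6 genes the count was 7 of 42 (16.7%, interval 6.97 to 31.4), near that background. The other genes had 2 of 17 at pnt, 1 of 4 at ttk, 0 of 2 at gcm, 0 of 2 at gcm2 and 0 of 8 at loco. The count at repo was the highest of the 6, and its interval does not allow for singling it out.

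These 4 sites all lay upstream or at the start of repo. The start itself, chr3R:18235653-18236321, had regions of Gcm (at q 1e-10) and Ubx+Gcm and of no other line. The site at 1233 bp upstream, chr3R:18234615-18235304, had regions of Gcm (at q 1e-10), Ubx+Gcm and Ubx+Hth+Gcm. The site at 3736 bp had Gcm and Ubx+Gcm, both at q 1e-2 alone. The site at 7138 bp, chr3R:18228836-18229273, was shared by Gcm (at q 1e-10), Dfd+Gcm, Ubx+Gcm and Dfd+Hth+Gcm and held 1 octamer. All of the Hox regions at these 4 sites were called at q 1e-2 but not at q 1e-10, with widths of 284 to 471 bp.

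The Gcm region that no other line shared, chr3R:18233719-18234401, lay between these sites, 2132 bp upstream, and held the pair of octamers printed above. Of the lines with Dfd, none had a region over repo or at the sites within 3736 bp upstream of it. Dfd+Gcm and Dfd+Hth+Gcm thus shared 1 of the 4 sites with Gcm, Ubx+Gcm all 4 and Ubx+Hth+Gcm 1. Whether Ubx and Dfd differ in this could not be tested with 1 list per line.

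The other repo sites were more widely shared. The widest, chr3R:18243156-18247589, 4434 bp in 14-3-3epsilon downstream of repo, reached q 1e-10 in all 12 lines, and chr3R:18241930-18243009 was called in all 12. At the far upstream edge, chr3R:18225830-18227217 over Mdh2 was present in 10 lines, with Gcm, Abd-B and Abd-B+Hth at q 1e-10. Neither Ubx nor Ubx+Hth had a region there, while Ubx+Gcm and Ubx+Hth+Gcm did. The site at 5982 bp upstream, in 9 lines, had no Gcm region.

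pnt held the most regions of the 6 genes, 270 of the 548, in the longest window, 75937 bp. The gene (FBgn0003118, chr3R:23290231-23346167, minus strand) has 3 annotated transcript starts, spread over its 55937 bp. Abd-B had 29 regions, Abd-B+Hth 28, Dfd+Hth 27, Dfd 26, Dfd+Gcm and Ubx+Gcm 23, Dfd+Hth+Gcm and Hth 22, Gcm 20, Ubx+Hth and Ubx+Hth+Gcm 18 and Ubx 14. The 31 sites included 7 present in all 12 lines, 4 of these at q 1e-10 throughout.

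The 4 sites at q 1e-10 in every line were all in the pnt body. They were chr3R:23324897-23327866, the widest site chr3R:23306867-23312269 (5403 bp), chr3R:23294324-23296554 over the start of pnt-RC and pnt-RE, and chr3R:23292771-23294202 next to it. The middle start, of pnt-RD, lay in chr3R:23313439-23315846, which every line but Gcm occupied at q 1e-10. The most upstream start, of pnt-RB, had a region within 500 bp in 10 lines and none in Dfd+Gcm and Dfd+Hth+Gcm. Within 500 bp, the starts of pnt-RB, pnt-RD and pnt-RC had regions of 10, 11 and 12 lines, and Gcm had none at the middle one. Over the start positions themselves, the middle start and that of pnt-RC and pnt-RE had the same 11 lines, without Gcm. Gcm had no region over the pnt-RB start either.

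Gcm regions at q 1e-10 were found at 10 pnt sites. Besides the 4 shared by every line, they were chr3R:23340331-23343446 (11 lines, all but Ubx), chr3R:23333878-23335681 (12 lines), chr3R:23343544-23344165 (Ubx+Gcm, Hth and Gcm), chr3R:23291708-23292747 (Ubx+Gcm and Gcm), and chr3R:23300727-23301185 and chr3R:23351297-23351827 in Gcm alone. The last lies in a coding exon of PolE1, 5395 bp upstream of pnt. At 2 pnt sites, the Hox lines had a region only where gcm was on the plasmid, in both cases Ubx+Gcm.

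A pair of intronic pnt stretches was called in Dfd+Hth but not in Dfd, and 1 of the pair also in Ubx+Hth but not in Ubx. The site chr3R:23330676-23331271 had regions of Dfd+Hth and Dfd+Hth+Gcm, both at q 1e-10, and of none of the other 10 lines, Hth included. Within chr3R:23340331-23343446, a distal part at chr3R:23342671-23343396 was occupied at q 1e-10 in Dfd+Hth, Ubx+Hth, Abd-B+Hth, Dfd+Hth+Gcm and Hth. Abd-B also had a region inside this part, chr3R:23342873-23343241, but it was not called at q 1e-10. The Abd-B region chr3R:23340982-23342687, called at q 1e-10, reached only the edge of the part. Dfd, Ubx, Dfd+Gcm, Ubx+Gcm and Ubx+Hth+Gcm had no region over this distal part. The rest of that site had regions in Dfd and in Ubx+Gcm, the latter at chr3R:23340916-23342293 and at q 1e-10 without a counterpart in Ubx.

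Both stretches held an octamer of the Exd-Hox type, for which TGATTGAT, TGATTAAT and TGATTTAT were searched on both strands after these sites had been seen. They are printed with 2 copies from gcm2 regions, since these lie in regions called at q 1e-10 with Hth and absent from the same Hox protein alone. The whole width of the regions was searched here, and not all of the copies lie in the central 200 bp, to which the shares below refer. Both loco regions called at q 1e-10 with Hth and absent from the same Hox protein alone, described below, held no such octamer. Capitals mark the octamer, each on its own strand.
pnt, Dfd+Hth and Dfd+Hth+Gcm, chr3R:23331026-23331033, plus strand: tttggcatttaTGATTAATtgagttgcgac
pnt, Dfd+Hth, Ubx+Hth and 4 other lines, chr3R:23343195-23343202, minus strand: tttcatatgaaTGATTGATtggtttcaaaa
gcm2, Dfd+Hth, chr2L:9606179-9606186, minus strand: tgcctattgacTGATTGATatccactcaca
gcm2, Ubx+Hth and 8 other lines, Dfd and Hth among them, chr2L:9614543-9614550, minus strand: acgtcatggaaTGATTAATctcaagatggt

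The share of regions with one of these octamers at the 6 genes had an interval that included the share of the whole list in all 3 Hox lines with Hth. In the central 200 bp, 5 of 49 Dfd+Hth regions had one (10.2%, interval 3.4 to 22.2) against 12.7% of all Dfd+Hth regions. The counts were 5 of 34 in Ubx+Hth (14.7%, interval 4.95 to 31.1, against 10.6%) and 2 of 52 in Abd-B+Hth (3.85%, interval 0.469 to 13.2, against 8.75%). Of all 200 bp windows of the genome, 4.64% held one.

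ttk (FBgn0003870, chr3R:31713867-31735392, plus strand) had few regions, between 2 and 7 a line. Abd-B, Dfd+Hth and Hth had 7, Ubx+Hth and Gcm 6, Ubx, Abd-B+Hth, Dfd+Gcm, Ubx+Gcm and Ubx+Hth+Gcm 5, Dfd 4 and Dfd+Hth+Gcm 2. Both sites over its transcript starts, chr3R:31711576-31714326 and the widest, chr3R:31723870-31726938, were present in all 12 lines. The Gcm region over the upstream start reached q 1e-10, and that over the downstream starts did not.

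The ttk site at 5369 bp, chr3R:31718374-31720099 in an intron, was the only 1 of the 76 in which a Hox line with gcm on its plasmid reached q 1e-10 while every Hox line without gcm had no region. Ubx+Gcm, Ubx+Hth+Gcm and Gcm reached q 1e-10 there, and Dfd+Gcm and Hth had a region at q 1e-2. Dfd+Hth+Gcm had none. The site held the single octamer of the ttk window. Since Hth alone also had a region, the site was not particular to the lines with Gcm.

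The Dfd and Gcm lines were absent from a pair of other intronic ttk sites. The site at 9220 bp had regions of Ubx, Abd-B, Dfd+Hth, Ubx+Hth, Ubx+Hth+Gcm and Hth, and the site at 1533 bp of 8 lines, all but Dfd, Dfd+Gcm, Dfd+Hth+Gcm and Gcm. Dfd+Hth+Gcm kept only the 2 sites at transcript starts, both at q 1e-2 alone.

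loco (FBgn0020278, chr3R:22619968-22639387, minus strand) had the most regions in Gcm, 12, against 9 in Dfd, 8 in Abd-B and Dfd+Gcm, 7 in Ubx, Abd-B+Hth, Ubx+Gcm, Ubx+Hth+Gcm and Hth, 6 in Dfd+Hth and Dfd+Hth+Gcm and 4 in Ubx+Hth. The widest site of all 6 genes, chr3R:22622884-22629344, covered 6461 bp of the gene and reached q 1e-10 in all 12 lines. It included the start of loco-RF and loco-RC, but only Abd-B, Dfd+Hth, Abd-B+Hth and Hth had a region over that start. All 12 lines had a region within 500 bp of it. Of the 2 octamers in the site, both in an intron, 1 is printed above.

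Gcm was alone at 4 loco sites. The regions chr3R:22614521-22615276 in mRRF2 and chr3R:22611360-22611911 in CG31156 and 1 in a coding exon of loco reached q 1e-10, and chr3R:22637214-22637496 in another coding exon of loco did not. Gcm also reached q 1e-10 at chr3R:22634689-22637166, a site of 11 lines, and at chr3R:22616132-22616833, shared with Abd-B+Hth. Over the start of loco-RH, which lies in the first, only Gcm, Ubx+Gcm and Hth had a region. The 4 sites of Gcm alone, by their definition, had no region of the 4 Hox lines with Gcm. The start of loco-RB had no region over it, and that of loco-RD had regions within 500 bp in 10 lines, without Ubx+Hth and Gcm.

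With Hth, loco gained calls at q 1e-10 as well. Dfd+Hth had a region at chr3R:22634689-22635306 that Dfd lacked, and Ubx+Hth one in chr3R:22630668-22633000, at chr3R:22631575-22632150, that Ubx lacked. Both overlapped a region of Hth. Lines without Hth also had regions there. These were Abd-B and Dfd+Gcm over the first, and Dfd, Abd-B, Dfd+Gcm and Ubx+Gcm over the second.

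Counted over the 6 genes, the share of regions present only with Gcm differed between Dfd and Ubx, as it did in the whole lists. Of 47 regions of Dfd+Gcm, 4 had no region of Dfd (8.51%, interval 2.37 to 20.4), against 13.1% of all Dfd+Gcm regions. Of 49 regions of Ubx+Gcm, 22 had no region of Ubx (44.9%, interval 30.7 to 59.8), against 48.4% of all. Both shares of the 6 genes lay near the background of their list.

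A Gcm region overlapped 3 of the 4 regions gained in Dfd+Gcm (interval 19.4 to 99.4), against 55.5% of all regions gained there, and 2 of the 4 were at repo. Of the 22 gained in Ubx+Gcm, 11 overlapped a Gcm region (50%, interval 28.2 to 71.8), against 50.4% of all regions gained in that comparison, and 6 were at repo and 10 at pnt. Only 2 of the 22 reached q 1e-10, in ttk and pnt. The list of Ubx was short, with 5278 regions against 8827 in Ubx+Gcm, and its part in these counts was not tested.

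In the other direction, 8 of 48 regions of Dfd had no region of Dfd+Gcm (16.7%, interval 7.48 to 30.2, against 25.2% of all), and 6 of the 8 were at pnt. From Ubx to Ubx+Gcm, 3 of 32 were lost (9.38%, interval 1.98 to 25, against 7.09%). Total regions at the 6 genes went from 48 to 47 with Gcm for Dfd and from 32 to 49 for Ubx.

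**Figure D4:**
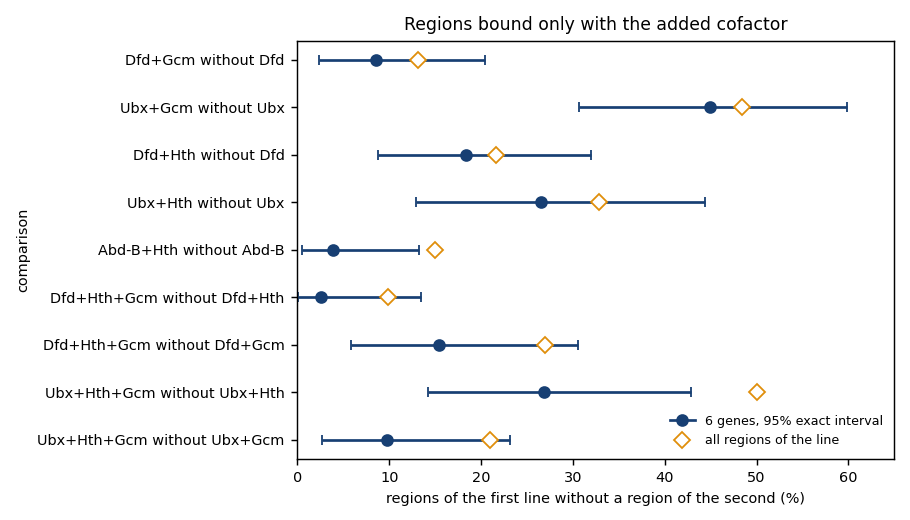
Percentage of regions of the first line that no region of the second line overlapped, for each of the 9 comparisons. Points are the regions at the 6 genes with 95% exact binomial intervals, and open diamonds all regions of the line. The diamond lies outside the interval in Abd-B+Hth against Abd-B (15%) and in Ubx+Hth+Gcm against Ubx+Hth (50%).

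With Hth, 9 of 49 Dfd+Hth regions had no region of Dfd (18.4%, interval 8.76 to 32, against 21.6% of all) and 9 of 34 Ubx+Hth regions none of Ubx (26.5%, interval 12.9 to 44.4, against 32.8%). In both comparisons 6 of the 9 overlapped a Hth region (66.7%, interval 29.9 to 92.5), against 29.6% of all regions gained in Dfd+Hth and 68.1% of those gained in Ubx+Hth. Of the 9, 4 and 3 were called at q 1e-10. Abd-B+Hth gained 2 of 52 (3.85%, interval 0.469 to 13.2), against 15% of its list. With 400 bp windows on the region centres it gained 10 (19.2%, interval 9.63 to 32.5, against 24.1%), and the share of the list fell within the interval, a comparison added after the data were seen. Both of the 2, at gcm2 and loco, were called at q 1e-2 alone.

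Losses with Hth were 4 of 48 for Dfd (8.33%, interval 2.32 to 20, against 19.2%), 4 of 32 for Ubx (12.5%, interval 3.51 to 29, against 36.9%) and 11 of 57 for Abd-B (19.3%, interval 10 to 31.9, against 17.9%). For Ubx the share of the whole list lay above the interval of the 6 genes. Of the 11 Abd-B regions, 5 were at pnt.

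With Gcm added to Hth, the Dfd line gained a single region. Dfd+Hth+Gcm had 1 region of 39 without a region of Dfd+Hth (2.56%, interval 0.0649 to 13.5, against 9.83%), the one at 7138 bp upstream of repo, and Dfd+Hth lost 12 of 49 (24.5%, interval 13.3 to 38.9, against 23.5%), 6 at pnt and 5 at ttk. Ubx+Hth+Gcm gained 11 of 41 over Ubx+Hth (26.8%, interval 14.2 to 42.9), below the 50% of its list, with 3 each at repo and loco. Of the 11, 6 overlapped a Gcm region (54.5%, interval 23.4 to 83.3), against 49.1% of all regions gained in that comparison, and 1, in ttk, reached q 1e-10.

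Adding Hth to lines with Gcm gained 6 of 39 in Dfd+Hth+Gcm (15.4%, interval 5.86 to 30.5, against 27.0%) and 4 of 41 in Ubx+Hth+Gcm (9.76%, interval 2.72 to 23.1, against 21.0%). Of the 6, 4 were at pnt, among them both pnt parts described above. These comparisons share lines with the ones before, so that their counts are not independent.

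Read from the Gcm line, 24 of its 52 regions overlapped a region of Dfd (46.2%, interval 32.2 to 60.5, against 34.1% of all Gcm regions) and 23 one of Ubx (44.2%, interval 30.5 to 58.7, against 26.8%). With Gcm on the plasmid the counts were 25 for Dfd+Gcm (48.1%, interval 34 to 62.4, against 36.6%) and 34 for Ubx+Gcm (65.4%, interval 50.9 to 78, against 47.9%). No other line shared 13 of the 52 (25.0%, interval 14 to 38.9, against 40%). Regions of Dfd+Hth overlapped 26 of the 52 (interval 35.8 to 64.2, against 34.0%), of Ubx+Hth 22 (42.3%, interval 28.7 to 56.8, against 22.8%) and of Hth 29 (55.8%, interval 41.3 to 69.5, against 38.6%). The background lay below the interval for 5 of the 11 lines, Ubx, Dfd+Hth, Ubx+Hth, Ubx+Gcm and Hth, and above it for regions of Gcm alone. In every line the regions at these genes had a larger median width than the whole list. The medians were 677 against 526 bp in Ubx and 497 against 475 bp in Gcm. The regions also covered a larger share of bases, 12.05% against 2.555% of the genome in Ubx. The part of width and density in these overlaps was not tested.

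Other genes of the same pathways gave similar counts. Of 16 genes that act with pnt (aop, edl, Egfr, sty and rl), ttk (phyl, sina and ebi) or loco (moody, Galphai, pins and Gbeta13F) or in glia (pros, retn, htl and Nrx-IV), 15 had a Gcm region in the body or within 10 kb. The exception was phyl, which encodes an adaptor for Ttk degradation. Of all protein-coding genes, 85.6% had a Gcm region at this distance. At q 1e-10, 14 of the 16 had one, against 68.3% of protein-coding genes. The numbers of Gcm regions ranged up to 10 at pros, whose homeodomain protein acts in neural and glial fate, with 9 at sty and edl, 8 at aop and 7 at ebi and moody.

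A region of Dfd+Gcm without one of Dfd was found at 6 of the 16 genes and at 3 of the 6 genes, against 24.8% of protein-coding genes. For Ubx+Gcm and Ubx the counts were 15 of 16 and 6 of 6, against 66.6%. For Dfd+Hth they were 8 and 4, against 31.8%, for Ubx+Hth 7 and 5, against 25.7%, and for Abd-B+Hth 8 and 2, against 38.9%. Long genes have longer windows, which the share over all genes does not take into account.

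The pattern over lines was compared with that of 11470 other genes, as the Pearson correlation of relative coverage over the 12 lines. These points share the libraries and the length of each line's list, so that the values only describe likeness. The closest were nrv1 and nrv2 for pnt (r = 0.969 and 0.963), yin and CG2930 for gcm (0.96 and 0.956), Dic3 and Hey for loco (0.953 and 0.944), meso18E and CG14230 for ttk (0.933 and 0.926), ste24a and ste24c for repo (0.923 and 0.907), and CG2059 and JMJD4 for gcm2 (0.871 and 0.857). Except for CG2059 and JMJD4, the genes of each pair are neighbours on the chromosome with overlapping windows.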

How the data were processed

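Anti-GFP ChIP-Seq of 12 stable Kc167 lines was analysed from the region lists. Per the labels and the study's methods, the authors used Bowtie 1.2.2 for alignment to dm6, scaffolds left out and only reads with 1 position kept, and MACS2 2.1.1.20160309 for peaks per replicate over input, with thresholds of q 1e-2 and q 1e-10. The deposited lists hold, for each line, regions that overlapped in both replicates, as start and end positions and the name of the line. Regions over exons carried by the plasmids had been removed. The deposited lists give no score, summit or depth, so that no replicate error and no test between lines could be computed.

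Genes, transcripts and features were taken from Ensembl 115, whose build is that of the lists, and sequences from the Release 6 genome of RefSeq. None of the regions ended beyond a chromosome. Overlap was 1 bp, and regions at q 1e-2 were used unless stated. Octamers were counted in the central 200 bp. Shares carry 95% exact binomial (Clopper-Pearson) intervals. Scripts used Python 3.11.15, numpy 2.4.6 and scipy 1.17.1. Gained counts over the whole lists equalled those of bedtools 2.31.1 in 9 of 9 comparisons, and overlap and motif functions were tested on simulated data.

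Named with coordinates were sites with a Gcm region at q 1e-10, sites with a Hox region called at q 1e-10 with a cofactor and absent without it, and the widest site of each gene. Any other site was chosen after its values were seen. The sequence and position of 1 site are not reported here. The members and lists were chosen with earlier results of these data known. The alternatives were lists at q 1e-10, only the list with the cofactor at q 1e-10, flanks of 2 kb or 0, 400 bp windows on region centres, a required overlap of 50% of the shorter region and, for octamers, whole regions and flanking windows.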

Additional observations from a re-analysis of the deposited data

Results flagged for a closer look

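The number of regions at the 6 genes went down by 1 with Gcm for Dfd (48 in Dfd, 47 in Dfd+Gcm) and up by 17 for Ubx (32 in Ubx, 49 in Ubx+Gcm), a gap of 18 regions between opposite directions. At pnt the counts were 26 and 23 for Dfd and 14 and 23 for Ubx, a gap of 12. These differences were not tested, because each line is 1 list, and the Dfd change over the 6 genes is a single region. The whole lists moved in the same directions, from 10374 to 8886 regions for Dfd and from 5278 to 8827 for Ubx, and the part of list length in these counts was not tested.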

How the results depend on the processing

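With lists at q 1e-10, Ubx+Gcm gained 11 regions over Ubx at the 6 genes (22 at q 1e-2), Ubx+Hth+Gcm 6 over Ubx+Hth (11) and 8 over Ubx+Gcm (4), Abd-B+Hth 1 over Abd-B (2) and Dfd+Hth+Gcm 2 over Dfd+Hth (1). With only the list with the cofactor at q 1e-10, the gains were 0 for Dfd+Gcm over Dfd, 2 for Ubx+Gcm over Ubx, 5 for Dfd+Hth over Dfd, 4 for Ubx+Hth over Ubx and 0 for Abd-B+Hth over Abd-B. They were 0 for Dfd+Hth+Gcm over Dfd+Hth and 2 over Dfd+Gcm, and 1 for Ubx+Hth+Gcm over Ubx+Hth and 1 over Ubx+Gcm. With 2 kb flanks the merged sites fell from 76 to 49, and gains were 2 for Dfd+Gcm, 14 for Ubx+Gcm, 0 for Abd-B+Hth, 0 for Dfd+Hth+Gcm over Dfd+Hth and 7 for Ubx+Hth+Gcm over Ubx+Hth. With gene bodies alone there were 42 sites, 24 with Gcm, and gains of 2, 11, 0, 0 and 5 in the same order. Fewer bases were then searched. With 400 bp windows on region centres, gains were 7 for Dfd+Gcm, 10 for Abd-B+Hth, 3 for Dfd+Hth+Gcm over Dfd+Hth and 7 for Ubx+Hth+Gcm over Ubx+Gcm. Gcm regions with an octamer numbered 9 in the central 200 bp, 16 over whole regions, 4 with 2 kb flanks, and 0 and 1 in windows 1000 bp to either side. An overlap of 50% of the shorter region moved none of the counts by over 1.5 times, and 34 of 69 alternatives in all stayed within that. Counts of 1 to 4 regions move by this much with a single region. Replicates could not be left out in turn, since each list merges both. No paired analysis was possible because the lists hold no values per library. Apart from the fewer bases searched, the cause of these changes was not tested, and the lists give no depth.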
